A study of Rattus norvegicus with 6 samples.

Results

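The genes described here are 42 listed genes of cholesterol and fatty acid metabolism in cultured rat brainstem cells. A probe belonged to a gene when its single symbol in the array's platform annotation was that gene. Of the 42 genes, 39 had such a probe, with 57 probes among the 33849 of the normalized table, and 56 of them could be tested. Hmgcs1, which makes the precursor of mevalonate, Srebf1, the regulator of fatty acid synthesis genes, and Fabp5, a fatty acid binding protein, had no probe with that single symbol and were not analysed here. The cells came from 2 rat strains, SHR (spontaneously hypertensive rats, inbred for high blood pressure) and its normotensive control WKY (Wistar Kyoto), and the comparison asks which transcripts differ between them. Each strain had 3 single-colour CodeLink arrays, and each array was hybridised with biotin-labelled cRNA from cells pooled from 3 dishes. No treatment is named. The labels do not give the age or sex of the animals, the days in culture, or the litters behind each pool, so p-values reflect the spread among these pools only.

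Cholesterol is made from acetyl-CoA through mevalonate and squalene, and brain cells make their own because plasma lipoproteins do not cross the blood-brain barrier in quantity. When membrane sterol is low, Scap carries the SREBP transcription factors out of the endoplasmic reticulum and they switch on the genes of synthesis, while the Insig proteins hold Scap back when sterol is plentiful. Astrocytes pass cholesterol to other cells on Apoe particles loaded by Abca1 and Abcg1 under control of the LXR receptors, and oligodendrocytes need large amounts of it for myelin. Fatty acids are made by Acaca and Fasn, desaturated and lengthened by the Scd, Fads and Elovl enzymes, and burnt in mitochondria after entry through Cpt1a and Cpt2.

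Values are log2 of the intensity after the submitters' normalization, and differences are SHR minus WKY with the standard error (SE) of the limma fit. An intensity depends on the probe as well as on the transcript, so levels were compared within a probe and never between probes. Where a gene had several probes, probe 1 is the one with the highest mean. A probe is called dim where its mean lies under 7.18, the lowest 25% of all probes. Median intensity per array was 439 to 572 units in the per-sample tables. Their titles call them normalized, but as these medians differ they are called unnormalized here. Arrays of one strain correlated at 0.969 to 0.98 across 31327 probes, and arrays of different strains at 0.964 to 0.977. Of 10 Hox and related genes that mark the hindbrain, 4 had a tested probe, and Hoxa2, Hoxb4 and Hoxb5 were above the dim level on every array while Hoxa5 was dim. The 1 forebrain marker of 5 with a tested probe, Emx2, was dim on every array.

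No probe of these genes differed between the strains past the threshold. In limma with Benjamini-Hochberg adjustment over all 33249 probes, 0 of the 56 member probes had an adjusted p under 0.05, and neither did any other probe (0.0% of all probes). The smallest adjusted p of a member probe was 0.575. At an unadjusted p under 0.05 stood 0 member probes higher in SHR, against 3.65% of all probes, and 2 lower (3.57%), against 4.01%. The 3 SHR values lay wholly above the 3 WKY values at 2 member probes (3.57%), against 6.35% of all probes, and wholly below them at 4 (7.14%), against 7.48%. These shares are near or under those of the array as a whole.

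The differences were small. Of the 56 probes, 52 differed by less than 0.5 on the log2 scale, with SEs of 0.12 to 1.15 and a median SE of 0.18, and the 95% interval included 0 at 54. Taking probe 1 of each gene, 13 of 39 genes were above 0 and 26 (66.7%) below, against 51.6% of all probes below. The median difference was -0.09, and -0.01 over all probes. Of the 15 genes with several tested probes, 7 had probes of the same sign and 8 had probes that disagreed in sign. The 8 were Fdft1, Sqle, Insig1, Insig2, Apoe, Nr1h2, Acaca and Fads2.

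**Figure D1:**
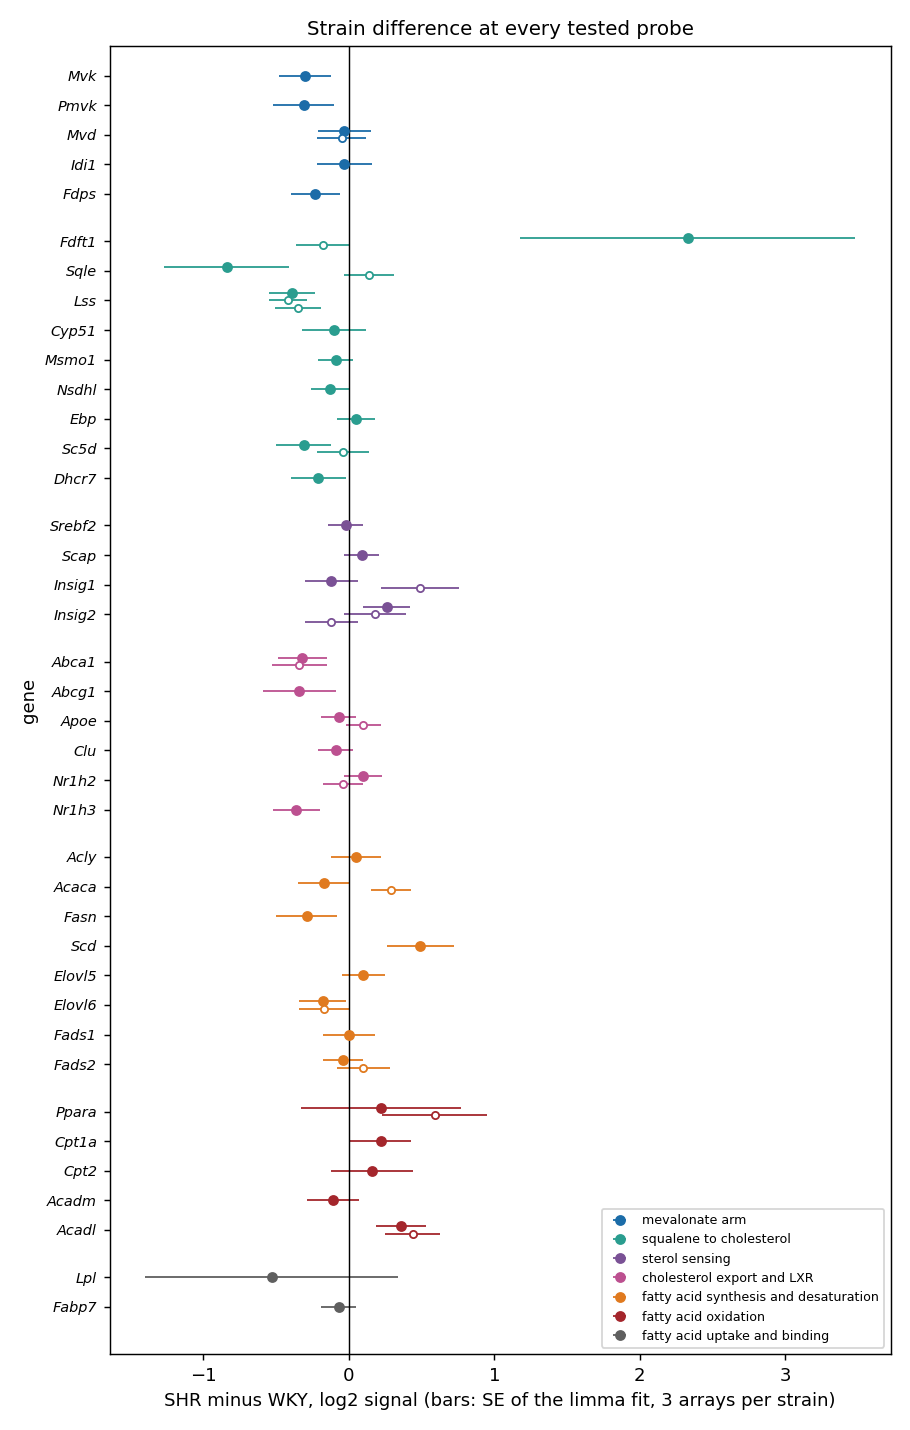
Strain difference (SHR minus WKY, log2 signal, horizontal axis) at each of the 56 tested probes, by gene and coloured by role, with bars of 1 SE (3 arrays per strain, except 2 WKY arrays at Idi1 and at 1 Ppara probe); filled points are probe 1 and open points the other probes. Most points lie within 0.5 of 0, the 3 Lss probes lie together at -0.42 to -0.35, and the probe at 2.33 is probe 1 of Fdft1, whose other probe lies at -0.18.

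The 5 measured enzymes of the mevalonate arm, from mevalonate to farnesyl diphosphate, all had differences below 0, with a median of -0.23. Fdps, the farnesyl diphosphate synthase and the brightest probe of this arm, read 14.44, 14.53 and 14.04 in SHR 1, 2 and 3 against 14.52, 14.63 and 14.55 in WKY 1, 2 and 3. SHR 3 was the low array, SHR 2 lay within the WKY range, and the difference was -0.23 ± 0.17 (SE), or -0.09 without SHR 3. Mvk, the mevalonate kinase, read 13.50, 13.56 and 13.06 in SHR against 13.54, 13.65 and 13.83 in WKY, with SHR 3 again the lowest and a difference of -0.30 ± 0.18, or -0.14 without SHR 3. Pmvk, which adds the next phosphate, read 13.01, 13.14 and 12.69 in SHR against 12.93, 13.32 and 13.52 in WKY, a difference of -0.31 ± 0.21, or -0.47 without WKY 1 and -0.18 without WKY 3. Only for these 2 kinases and Fdps did the difference exceed its SE. Mvd, the decarboxylase that makes isopentenyl diphosphate, differed by -0.03 ± 0.18 and -0.05 ± 0.17 at its 2 probes. Idi1, which isomerises that product, differed by -0.03 ± 0.19 with WKY 2 left out because its entry was not above 0. Its second probe had too few values above 0 to be tested. At all 5 genes the 95% interval of the difference included 0. Without SHR 3 the median of the arm was -0.09, and without SHR 2 it was -0.33.

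From squalene to cholesterol, 7 of 9 enzymes had differences below 0, and the median was -0.13. Lss, the lanosterol synthase that closes the sterol ring system, was the one enzyme at which every probe separated the strains. Its probe 1 read 11.70, 11.75 and 11.41 in SHR against 12.19, 11.85 and 12 in WKY. Probe 2 read 10.93, 10.91 and 10.69 in SHR against 11.36, 11.16 and 11.27 in WKY. Probe 3 read 10.07, 9.95 and 9.64 in SHR against 10.32, 10.13 and 10.27 in WKY. At all 3 probes every SHR array was below every WKY array, and SHR 3 was the lowest. The signal was 1.31-fold, 1.34-fold and 1.28-fold brighter in WKY at the respective probes. The differences were -0.39 ± 0.16 (95% interval -0.78 to -0.01), -0.42 ± 0.13 (-0.74 to -0.09) and -0.35 ± 0.16 (-0.73 to 0.03). Unadjusted p in limma was 0.0449, 0.0194 and 0.063, and adjusted p over all probes was 0.643, 0.575 and 0.655, so none passed. These 3 probes measure one transcript in the same 6 pools and count as 1 gene. Left out in turn, single arrays moved the difference at probe 2 between -0.47 and -0.34, and unnormalized intensities gave -0.24. In unnormalized intensities the strains overlapped at all 3 probes, with SHR 2 above WKY 2. The values of these 2 arrays were 11.93 and 11.70 at probe 1, 11.10 and 11.02 at probe 2, and 10.15 and 10.01 at probe 3.

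Fdft1 and Sqle, the enzymes just before Lss, had the largest differences at single probes, and in each the other probe went the opposite way. Fdft1, the squalene synthase, read 12.94, 13.11 and 12.83 in SHR against 7.77, 12.47 and 11.66 in WKY at probe 1. All 3 SHR arrays were above all WKY arrays, but WKY 1 lay far under the other two. The difference was 2.33 ± 1.15 (limma adjusted p = 0.68 over all probes), or 0.89 without WKY 1 and 3.25 without WKY 2. Its probe 2 read 10.60, 11.06 and 10.73 in SHR against 10.78, 11.15 and 11.01 in WKY, with overlapping strains, WKY 1 in range and a difference of -0.18 ± 0.18. Sqle, the squalene epoxidase, read 12.56, 12.32 and 10.92 in SHR against 13.04, 12.54 and 12.75 in WKY at probe 1. SHR 3 was low, SHR 1 lay within the WKY range, and the difference of -0.84 ± 0.43 was -0.34 without SHR 3. At Sqle probe 2 the values were 9.67, 9.70 and 10.06 in SHR against 9.87, 9.57 and 9.58 in WKY, where SHR 3 was the highest array and the difference was 0.14 ± 0.17.

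The later enzymes of the pathway were closer to 0. Msmo1, the sterol C4 methyl oxidase and the brightest probe of this group, read 13.89, 13.99 and 13.75 in SHR against 13.96, 14.00 and 13.94 in WKY. SHR 2 was within the WKY range, and the difference was -0.09 ± 0.12. Sc5d, which places the ring double bond of the late sterols, differed by -0.31 ± 0.19 and -0.04 ± 0.18 at its 2 probes, the first -0.15 without SHR 3. Dhcr7, which reduces 7-dehydrocholesterol to cholesterol, differed by -0.21 ± 0.19, or -0.07 without SHR 3. Nsdhl, a partner of Msmo1 in demethylation, differed by -0.13 ± 0.13, and Cyp51, the lanosterol demethylase, by -0.10 ± 0.22. Ebp, the sterol isomerase, differed by 0.05 ± 0.13. All of these probes overlapped between strains.

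Across both arms of sterol synthesis, 2 of 14 genes were above 0 and 12 below, with a median of -0.17. The median was -0.07 without SHR 3 and -0.25 without SHR 2, and in unnormalized intensities it was -0.01 with 7 of 14 genes below 0. Lss was the 1 gene of 14 (7.14%, against 4.01% of all probes lower in SHR) with an unadjusted p under 0.05 at probe 1. SHR 3 was the lowest of the 6 arrays at 9 of the 13 genes measured on all arrays (69.2%), against 20.1% of all probes and 23.1% of probes with a mean of 10 or more. Over all member genes it was the lowest at 20 of 38 (52.6%). These shares are a description of this array. The mean of the gene-centred log2 values over the 12 genes other than Fdft1, a selection made after its WKY 1 value was seen, was -0.0321, 0.0559 and -0.387 in SHR against 0.0799, 0.129 and 0.155 in WKY. With Fdft1 included the 13 genes gave 0.0585, 0.153 and -0.278 in SHR against -0.236, 0.171 and 0.132 in WKY, so the strains overlapped and WKY 1 was nearly as low as SHR 3.

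Markers of the oligodendrocyte lineage were lowest in SHR 1 and SHR 3. All 13 measured markers of 14 were below 0, 3 of them (23.1%, against 4.01% of all probes) at an unadjusted p under 0.05 in limma, with a median of -0.93. Mbp, a major myelin protein gene, read 13.69, 15.03 and 13.26 in SHR against 15.11, 15.04 and 14.84 in WKY. The lineage factors varied. Olig2 differed by -0.08 ± 0.14 and Olig1 by -0.04 ± 0.13 and -0.59 ± 0.32 at its 2 probes. Sox10 differed by -0.87 ± 0.50 and Myrf by -0.93 ± 0.50. The marker score was -0.683, 0.321 and -0.879 in SHR against 0.327, 0.618 and 0.297 in WKY. SHR 3 was the lowest and SHR 2 the highest of the SHR arrays, as in both arms of sterol synthesis. SHR 1 was low in the markers, but its score was -0.0314 in the mevalonate arm and 0.0985 from squalene to cholesterol with Fdft1 included. WKY 1 was not low in the markers. From squalene to cholesterol with Fdft1 included, the score was -0.299 in WKY 1 and -0.238 in SHR 3. Without Fdft1 it was 0.167 in WKY 1 and -0.397 in SHR 3. The summed marker intensity was 81700 to 170000 units in SHR and 160000 to 194000 in WKY, and every marker was above the dim level on every array. In such bulk samples fewer cells of a type and less RNA per cell cannot be told apart, and the part of the oligodendrocyte markers in the sterol differences was not tested.

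**Figure D2:**
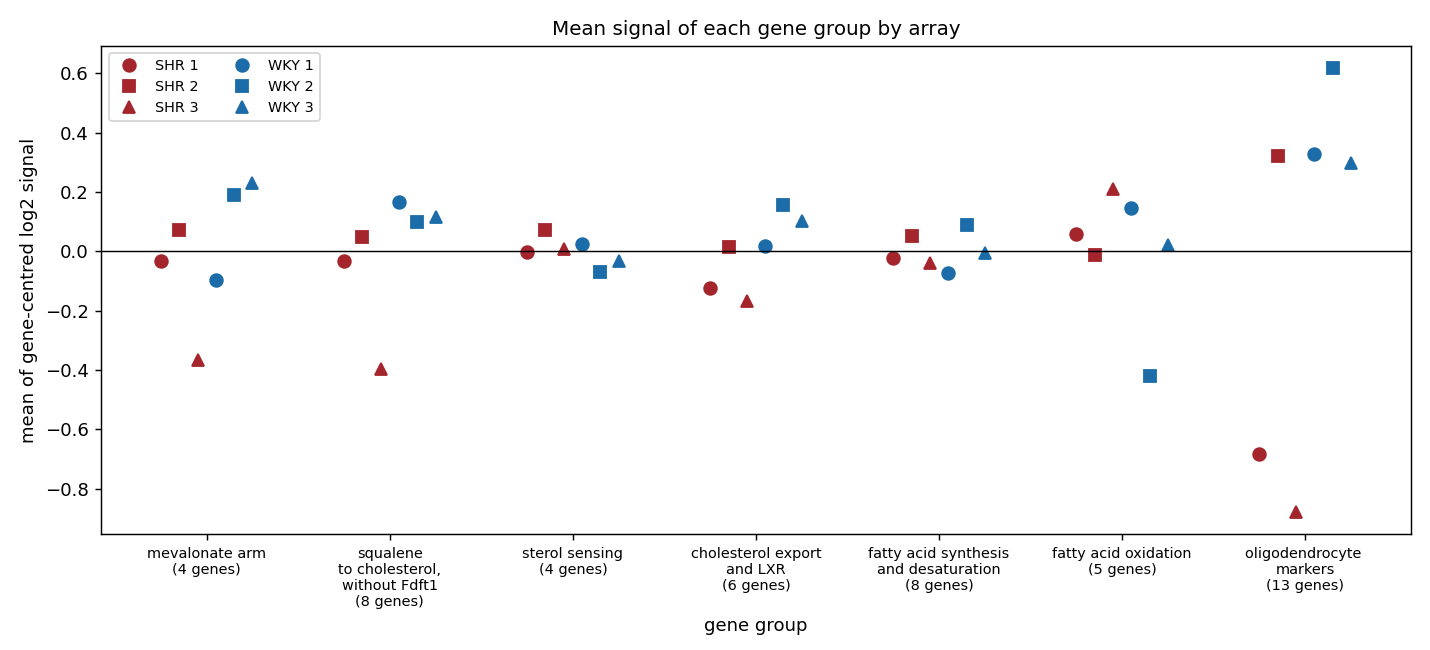
Mean of the gene-centred log2 signal (vertical axis) of 6 groups of the metabolic genes and of 13 oligodendrocyte markers, 1 point per array, with SHR in red and WKY in blue and the number of genes under each group; Fdft1 is left out of its group, a choice made after its values were seen. SHR 3 is the lowest array in the 2 sterol synthesis groups and in the oligodendrocyte markers, while SHR 2 lies beside the WKY arrays in the markers.

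The sensors of sterol differed by less than 0.3 at all probes above the dim level. Insig1, the SREBP target that retains Scap, read 13.87, 14.16 and 13.58 in SHR against 14.05, 13.95 and 13.97 in WKY at probe 1. The SHR arrays lay on both sides of the WKY arrays, and the difference was -0.12 ± 0.18. The dim second probe gave 0.49 ± 0.27. Srebf2, the transcription factor of sterol synthesis genes, differed by -0.02 ± 0.12, with an interval of -0.30 to 0.26. Scap, its escort, differed by 0.09 ± 0.12. Insig2, the second retention protein, gave 0.26 ± 0.16, 0.18 ± 0.21 and -0.12 ± 0.18 at its 3 probes. The median of the 4 genes was 0.03.

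In cholesterol export and the LXR receptors, 5 of 6 genes were below 0, with a median of -0.21. The median was -0.12 without WKY 2, and -0.10 with 4 of 6 below 0 in unnormalized intensities. Nr1h3, which encodes the receptor LXR alpha, read 9.52, 9.49 and 9.37 in SHR against 9.77, 9.62 and 10.08 in WKY. All SHR arrays were below all WKY arrays at this single probe, with a difference of -0.36 ± 0.16 (unadjusted p = 0.0605 and adjusted p = 0.655 in limma), or -0.23 without WKY 3. In unnormalized intensities SHR 2 read 9.68 and WKY 2 read 9.52, so the strains overlapped there. Nr1h2, which encodes LXR beta, differed by 0.10 ± 0.13 and, at a second probe, by -0.04 ± 0.14. Abca1, the transporter that loads cholesterol onto Apoe particles, read 11.70, 12.13 and 11.64 in SHR against 12.13, 12.27 and 12.04 in WKY at probe 1. SHR 1 and SHR 3 were low, SHR 2 lay within the WKY range, and the differences at the 2 probes were -0.32 ± 0.17 and -0.34 ± 0.19. Abcg1, the second exporter, read 13.55, 13.76 and 13.63 in SHR against 13.46, 14.41 and 14.10 in WKY. WKY 1 was the lowest array there, and the difference of -0.34 ± 0.25 was -0.61 without WKY 1 and -0.14 without WKY 2. Apoe, the lipid carrier and the brightest of this group, read 15.25, 15.15 and 15.10 in SHR against 15.21, 15.34 and 15.18 in WKY, with overlap and a difference of -0.07 ± 0.12. Its second probe gave 0.10 ± 0.12. Clu, the other main apolipoprotein of astrocytes, differed by -0.09 ± 0.12.

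The score of these 6 genes was -0.123, 0.0164 and -0.168 in SHR against 0.0165, 0.156 and 0.102 in WKY, so SHR 2 and WKY 1 were almost level. Astrocyte markers, 10 of 10 measured, had a median difference of 0.03 with 5 above and 5 below 0, and their summed intensity was 205000 to 213000 units in both strains. For microglia and macrophages, which also express Apoe and Abca1, 9 of 11 markers were below 0 with a median of -0.08, and the sum was 217000 to 222000 units in SHR and 223000 to 229000 in WKY. Such a sum is carried by its brightest markers and says little about the others. Whether the brightest probes, those of Apoe among them, lay near the top of the measuring range was not tested. The part of either cell type in the export genes was not tested.

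**Figure D3:**
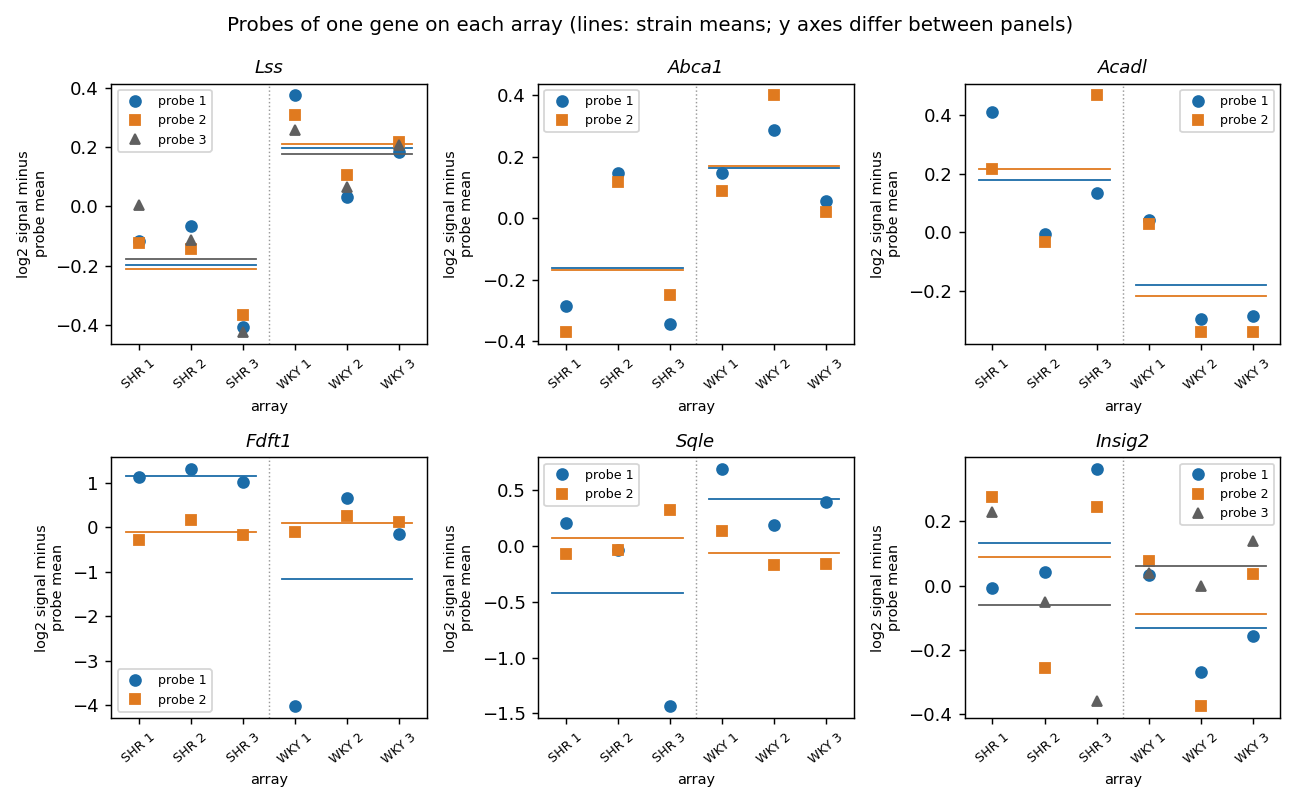
Log2 signal minus the probe's mean (vertical axis, own scale in each panel) on each of the 6 arrays for 6 genes with several probes, 1 symbol per probe, with horizontal lines at the strain means. The probes of Lss, Abca1 and Acadl give alike differences, while those of Fdft1, Sqle and Insig2 disagree in sign, with WKY 1 low at 1 Fdft1 probe and SHR 3 low at 1 Sqle probe.

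Reference promoters were searched for the sterol regulatory element core, the NF-Y box and the Sp1 box. The search ran from 250 bases before to 50 after the annotated start of a gene (RefSeq, build GRCr8). Of the 42 genes, 31 had an entry. Pmvk, Fdft1, Sqle, Abcg1, Clu, Acaca, Fasn, Elovl6, Acadl, Lpl and Fabp5 had none and were not searched. The sterol regulatory element core TCACNCCAC, with N for any base, was in 0 of the 31 and in 374 of 33469 promoters of the same length (1.12%). The letters CCAAT, the box bound by NF-Y, were in 18 of 31 (58.1%) and in 10 of the 12 sterol synthesis promoters (83.3%), against 37.5% of all promoters. The Sp1 box GGGCGG was in 22 of 31 (71.0%) and in 10 of the same 12 (83.3%), against 33.1%. Both strands were searched, and bases in 2 motifs occurred in 1 member promoter, that of Dhcr7, where 2 GGGCGG boxes share 1 base. A match is a description of letters and no site of binding, and none of it was set against the strain differences. The CCAAT and GGGCGG boxes are common among all promoters, which were not matched to the members in base content. A tie of these 2 boxes to sterol control was not tested. The strict pattern of the sterol element is rare in all promoters, so its absence here does not show that these genes lack such an element. The promoters of Lss, Mvk and Nr1h3, chosen after the values were seen, are printed 5′ to 3′ on the strand of the gene with CCAAT and GGGCGG boxes, read on either strand, in capitals. Lss (chr20:12118181-12118480, minus strand) is the enzyme with the smallest p and has 1 CCAAT box, 82 bases before the start, with GGGCGG boxes at 223 and 147. Mvk (chr12:47819454-47819753, minus strand) has 5 CCAAT boxes, at 173, 120, 67, 50 and 14 bases before the start, and GGGCGG boxes at 216 and 150. Nr1h3 (chr3:97623180-97623479, minus strand), at which the strains also did not overlap in the normalized values, has none of the motifs.
Lss: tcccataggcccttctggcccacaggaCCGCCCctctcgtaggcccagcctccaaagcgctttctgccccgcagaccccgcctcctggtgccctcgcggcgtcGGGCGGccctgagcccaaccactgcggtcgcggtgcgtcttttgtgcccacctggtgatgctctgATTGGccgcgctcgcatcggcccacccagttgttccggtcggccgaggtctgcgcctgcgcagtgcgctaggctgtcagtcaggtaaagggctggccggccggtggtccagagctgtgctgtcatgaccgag
Mvk: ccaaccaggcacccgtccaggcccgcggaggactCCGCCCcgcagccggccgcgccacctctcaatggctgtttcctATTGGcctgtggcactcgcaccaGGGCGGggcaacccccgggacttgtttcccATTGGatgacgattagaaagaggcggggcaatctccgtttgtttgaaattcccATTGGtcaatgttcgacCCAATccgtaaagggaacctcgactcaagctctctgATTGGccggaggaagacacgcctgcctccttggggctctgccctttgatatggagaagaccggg
Nr1h3: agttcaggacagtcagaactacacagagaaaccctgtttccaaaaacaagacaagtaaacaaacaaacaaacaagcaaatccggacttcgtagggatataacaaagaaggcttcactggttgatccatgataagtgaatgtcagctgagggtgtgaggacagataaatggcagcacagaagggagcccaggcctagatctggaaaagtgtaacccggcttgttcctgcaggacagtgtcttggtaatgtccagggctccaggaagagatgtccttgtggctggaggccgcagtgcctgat

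Fatty acid synthesis and desaturation was evenly split, with 4 genes above 0 and 4 below and a median of -0.02. Scd, the delta-9 desaturase that makes oleate, read 13.37, 13.00 and 13.77 in SHR against 12.65, 13.01 and 13.01 in WKY. SHR 1 and SHR 3 were above every WKY array and SHR 2 was within the WKY range, with a difference of 0.49 ± 0.23 (unadjusted p = 0.0723 and adjusted p = 0.67 in limma). Without single arrays it lay between 0.30 and 0.68. Fasn, the fatty acid synthase, differed the other way, by -0.29 ± 0.21. Acaca, the carboxylase that commits acetyl-CoA to fatty acids, gave -0.17 ± 0.18 at probe 1. Its dim probe read 6.95, 6.78 and 6.96 in SHR against 6.61, 6.46 and 6.75 in WKY, without overlap, and differed by 0.29 ± 0.14. Acly, which supplies cytosolic acetyl-CoA, differed by 0.05 ± 0.17. Elovl5, an elongase of polyunsaturated fatty acids and the brightest of this group, read 13.56, 13.74 and 13.84 in SHR against 13.75, 13.64 and 13.45 in WKY, with overlap and a difference of 0.10 ± 0.15. Elovl6, the elongase of saturated fatty acids, gave -0.18 ± 0.16 and -0.17 ± 0.17 at its 2 probes. The desaturases Fads1, at 0.00 ± 0.18, and Fads2, at -0.04 ± 0.14 and 0.10 ± 0.18, were near 0, and the interval of Fads1 ran from -0.44 to 0.44.

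Fatty acid oxidation had 4 of 5 genes above 0 and a median of 0.22. Acadl, the long-chain acyl-CoA dehydrogenase, read 14.46, 14.04 and 14.18 in SHR against 14.09, 13.75 and 13.76 in WKY at probe 1, and 13.54, 13.29 and 13.79 against 13.35, 12.98 and 12.98 at probe 2. WKY 1 was the high WKY array at both probes and lay above SHR 2, so the strains overlapped. The differences were 0.36 ± 0.17 and 0.44 ± 0.19 (unadjusted p = 0.08 and 0.0562, adjusted p = 0.676 and 0.655 in limma). Acadm, the medium-chain dehydrogenase, differed by -0.11 ± 0.18. Cpt1a, the gate of fatty acid entry into mitochondria, read 11.93, 11.80 and 12.08 in SHR against 12.15, 11.53 and 11.48 in WKY, where WKY 1 was the highest array of all, and differed by 0.22 ± 0.21. Cpt2, its partner on the inner membrane, read 11.30, 10.87 and 11.42 in SHR against 11.59, 10.67 and 10.86 in WKY, again with WKY 1 the highest, and differed by 0.16 ± 0.28. Ppara, the nuclear receptor that switches on oxidation genes, was dim at both probes, which gave 0.22 ± 0.55 and 0.59 ± 0.36, the second with WKY 1 left out because its entry was not above 0. The group's median was -0.03 without WKY 2 and 0.43 without WKY 1, so it rests on which WKY arrays are counted.

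For uptake and binding, 2 genes were measured. Fabp7, the fatty acid binding protein of radial glia and astrocytes, read 15.21, 15.12 and 15.18 in SHR against 15.18, 15.23 and 15.30 in WKY, with overlap and a difference of -0.07 ± 0.12. Whether so bright a signal lay near the top of the measuring range was not tested. Lpl, the lipoprotein lipase, read 8.06, 8.18 and 7.88 in SHR against 6.48, 10.14 and 9.10 in WKY. The WKY arrays lay on both sides of the closely grouped SHR arrays, and the difference of -0.53 ± 0.87 was -1.58 without WKY 1 and 0.25 without WKY 2.

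**Figure D4:**
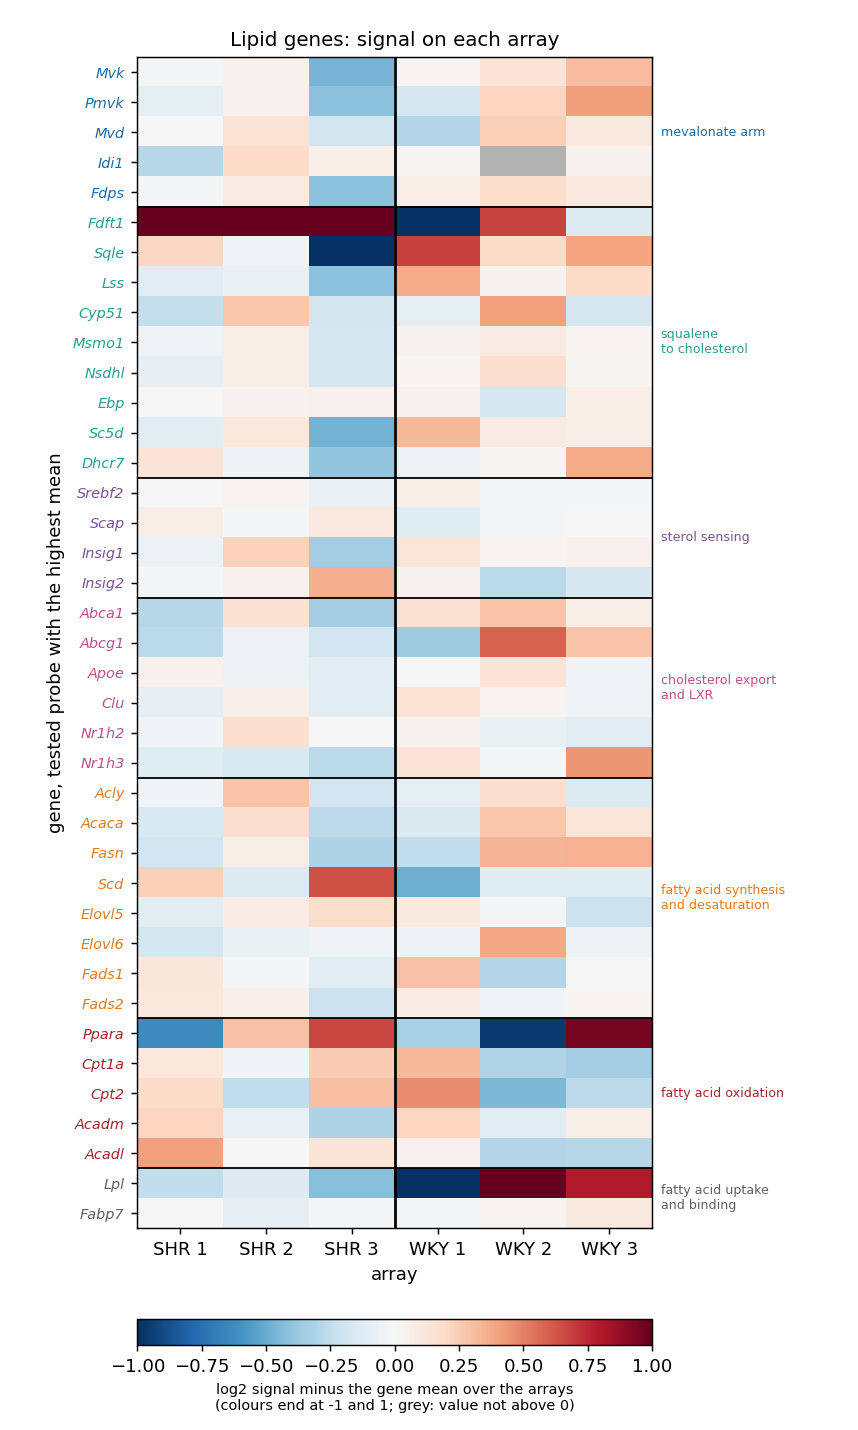
Gene-centred log2 signal of probe 1 of each measured gene (rows, by role) on each array (columns), with colours that end at 1 below and above the gene's mean; grey marks the Idi1 entry of WKY 2 that was not above 0. SHR 3 has the lowest value at most of the sterol synthesis genes, and Fdft1 and Lpl are lowest on WKY 1.

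Other genes of the same pathways gave no adjusted p under 0.05 either. The lists are counted at probe 1 of each gene, and the 2 genes of each with the smallest unadjusted p there are named. Among other sterol synthesis genes, 9 of 12 were tested, 3 above and 6 below 0, with a median of -0.08. Hsd17b7, a reductase of the demethylation steps, read 8.91, 9.31 and 8.92 in SHR against 9.54, 9.53 and 9.59 in WKY, all SHR arrays below, and differed by -0.51 ± 0.15 (unadjusted p = 0.0145, adjusted p = 0.567 in limma). Tm7sf2, a sterol reductase, lay the other way at 0.31 ± 0.14 without overlap. Of 22 tested genes of sterol uptake, trafficking and export, 7 were above and 15 below 0, the median was -0.08 and none had an unadjusted p under 0.05. There Vldlr, a lipoprotein receptor, differed by -0.44 ± 0.22 and Lcat, which esterifies cholesterol on lipoproteins, by 0.54 ± 0.31.

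Other genes of fatty acid synthesis and activation had 6 of 20 above 0 and a median of -0.15, with 1 of the 20 higher, against 3.65% of all probes, and 2 lower, against 4.01%, at an unadjusted p under 0.05. Fads3, a relative of Fads1 and Fads2, read 13.53, 13.12 and 13.61 in SHR against 12.96, 12.59 and 12.51 in WKY. All SHR arrays were above all WKY arrays, with a difference of 0.73 ± 0.20 (adjusted p = 0.533 in limma) and 0.62 ± 0.32 at its other probe. Dgat2, which completes triglyceride synthesis, read 10.50, 10.75 and 10.16 in SHR against 11.23, 11.04 and 11.01 in WKY, all SHR arrays below, with differences of -0.63 ± 0.18 and -0.75 ± 0.18 at its 2 probes (adjusted p = 0.556 in limma at the first).

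Of 22 other oxidation genes 13 were above 0, with a median of 0.06. Pdk4, the kinase that spares glucose when fatty acids are burnt, had a dim probe that read 7.62, 7.66 and 7.61 in SHR against 7.26, 6.39 and 6.09 in WKY, with all SHR arrays above, and that differed by 1.05 ± 0.30 (adjusted p = 0.538 in limma). Cpt1b, the muscle form of the carnitine transferase, differed by 0.31 ± 0.17. The remaining list, of uptake, binding and lipid droplets, had 5 of 14 genes above 0 and a median of -0.06. Mgll, which releases the last fatty acid of stored fat, read 11.37, 11.32 and 10.94 in SHR against 11.83, 11.64 and 11.79 in WKY, all SHR arrays below. It differed by -0.54 ± 0.16 (adjusted p = 0.556 in limma), and by -0.34 ± 0.15 and -0.09 ± 0.15 at its other probes. Slc27a4, a fatty acid transporter, differed by -0.33 ± 0.17. Markers of fibroblasts and meninges, with 10 of 11 measured, had a median of 0.35 and scores of -0.0102, 0.381 and 0.54 in SHR against -0.172, -0.229 and -0.51 in WKY. For choroid plexus and ependyma, 8 of 8 markers were measured, 6 above and 2 below 0, with a median of 0.85. At an unadjusted p under 0.05 stood 3 of them higher, against 3.65% of all probes, and 1 lower, against 4.01%. Ttr, the transthyretin gene of the choroid plexus, chosen after its values were seen, read 11.51, 12.49 and 11.76 in SHR against 8.12, 9.18 and 10.47 in WKY. The score of the 6 markers measured on all arrays was 0.52, 0.316 and 0.797 in SHR against -0.661, -0.717 and -0.254 in WKY, without overlap, and 3 of the 6 were above the dim level on every array. Their summed intensity was 9640 to 15200 units in SHR and 3270 to 5730 in WKY. The part of either marker list in the genes with higher SHR values, such as Scd, Fads3, Acadl and Pdk4, was not tested.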

How the data were processed

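RNA of cultured SHR and WKY brainstem cells was measured on 6 single-colour arrays, 3 per strain, grouped by the strain in the labels. Per the labels' design text, spot intensity was taken by the authors with the CodeLink software after background subtraction, spots near the negative controls were filtered, and arrays were normalized by quantiles. The software version and genome build are not stated in the labels. The deposited series table holds that normalized intensity, with a median of 520 units in every column and 615 entries per column not above 0. Deposited per-sample intensity tables are titled normalized, but their medians differ (439 to 572) and what was done to them is not stated. They also hold an unexplained missing code in 178 to 238 spots per array. They were used for alternatives and are called unnormalized where nothing was done to them here.

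Entries not above 0 were treated as missing before log2, with no offset. Probes with 3 values for either strain and 2 or more for the other were tested with limma 3.58.1 (R 4.3.3, lmFit and eBayes, two-sided, Benjamini-Hochberg over 33249 probes), and the fit was tested on simulated data. Precision is limited by the number of arrays. Of 33849 probes, 16753 have 1 symbol, 165 several and 16931 none, and probes with several were not named. Group medians use the probe of a gene with the highest mean, and scores average gene-centred values. The members, pathway lists and cell markers were chosen with earlier results of these data known, so no list was tested. All 42 genes are named, with every array's value at an unadjusted p under 0.05, at separated strains with a 1.5-fold difference, and for the brightest member of a role, and with values for some others chosen after they were seen. From each further pathway list the 2 genes of smallest p at probe 1 are named. Apod, Olig1, Olig2, Sox10, Myrf, Mbp, Aldh1l1 and Ttr were named after their values were seen. Promoters were to be printed where they held the sterol element core, and as none did, 3 others were chosen. Alternatives covered normalization, offset, filters, variance prior, array weights, probe choice, threshold, the replicate number as a block and each array left out. Figures were drawn with matplotlib 3.10.9.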

Additional observations from a re-analysis of the deposited data

How the results depend on the processing

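No member probe passed an adjusted p of 0.05 in any alternative run, nor at 0.10, and the smallest member value was 0.361, without WKY 1. The count of all probes past the threshold was 0, and became 7 with an offset of 16, 5 with probes valid on all 6 arrays, 18 without the dimmest 25% of probes, 28 with an intensity trend and robust prior, 10 with array weights, 9 with 1 probe per gene and 13 at an adjusted p of 0.10. Member probes at an unadjusted p under 0.05 numbered 2, and 1 with median-centred and 1 with unnormalized intensities, 5 without the dimmest probes, 7 with the trend and robust prior and 5 with array weights. Without single arrays they numbered 0 (without SHR 3 or WKY 3) to 8 (without WKY 1), with 6 without SHR 2 and 5 without WKY 2. The members' median of -0.09 became 0.05 in unnormalized intensities, where the median of all probes was 0.115 against -0.00988 in the series table, and 24 member genes were then above 0 and 15 below. At an unadjusted p under 0.05, 1542 probes were higher and 846 lower in unnormalized intensities, 904 and 1786 in median-centred intensities, and 1212 and 1333 in the series table. Fewer probes were adjusted for where probes were left out; otherwise the cause was not tested.

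Deviations of same-numbered arrays correlated at 0.0011, 0.22 and -0.129, so the numbers were not taken to pair the pools. In a fit with a replicate block, 0 probes passed the threshold, 2798 had an unadjusted p under 0.05 and the members' median was -0.09. Of 39 genes, 22 kept the sign of probe 1 in all alternatives run. The 17 others turned in at least 1, namely Acadm, Acly, Clu, Cpt2, Cyp51, Ebp, Elovl6, Fads1, Fads2, Idi1, Insig1, Lpl, Msmo1, Mvd, Nsdhl, Ppara and Srebf2. Leaving out Fdft1, an alternative chosen after seeing the data, gave medians of -0.21 for both sterol arms and -0.17 for squalene to cholesterol. With 3 pools per strain and a median SE of 0.18, the 95% interval included 0 at 54 of 56 probes.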
